A study of Drosophila melanogaster with 18 samples.

Results

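Integrins are the receptors by which animal cells hold on to the extracellular matrix, and the genes described here encode the integrin subunits of Drosophila melanogaster together with 3 proteins that tie them to actin. They are the 2 β subunits mys (myospheroid, Entrez gene 44885) and Itgbn (βν, 35368), the 5 α subunits mew (multiple edematous wings, 32275), if (inflated, 32661), scb (scab, 36692), ItgaPS4 (36693) and ItgaPS5 (37732), and the linkers rhea (talin, 38978), Ilk (integrin linked kinase, 53573) and Vinc (vinculin, 31201). These 10 genes, of 11982 with a probe set of their own on the array, were taken by name. Each was read from its brightest non-control probe set with a single symbol. In R7, inflated rose between early and late passages while mew, ItgaPS4 and Itgbn fell. The gene scb was also called lower, though its early and late arrays overlapped, and mys and the 3 linkers did not pass the test.

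An integrin is a dimer of 1 α and 1 β subunit that spans the membrane. In the fly, mys encodes the widely used β chain, mew encodes αPS1, which binds laminin, inflated encodes αPS2, which binds ligands with an RGD motif such as tiggrin, and scb, ItgaPS4 and ItgaPS5 encode a related set of α chains. Inside the cell, talin binds the tail of the β chain and actin, vinculin binds talin and actin, and Ilk joins a complex with PINCH and parvin. These attachments anchor muscle, hold epithelial layers together and serve cell migration, and βν is also known from the uptake of apoptotic cells by fly haemocytes (blood cells).

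RNA of 2 cell lines, R3 and R7, was hybridised to 18 Affymetrix 3' arrays, 9 per line. The lines were grown in flasks in Schneider's medium with fetal bovine serum and antibiotics and were sampled along their passages (P, the number of transfers to new medium), to follow expression while each became established. R3 was sampled early at P2 (2 replicates), at the intermediate stage on 4 arrays, 1 per passage from P5 to P8, and late at P16, P17 and P19. R7 had 3 early arrays (2 replicates of P2, and P3), 2 at the intermediate stage (P7, P8) and the same 3 late passages as R3. Its array at P4, a passage that the study's ranges place in both the early and the intermediate stage, was treated as a separate group. Neither genotype nor cell type is named in the labels, and no treatment other than the passages separates the groups. The labels name no independent cultures within a line, so p-values measure the spread between passages and arrays and not between independent cultures. In such bulk RNA, fewer cells of a type and less RNA per cell cannot be told apart.

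Differences of 2-fold or more between the R7 P2 replicates affected 0.0196% of the 10200 tested probe sets. Between the R3 P2 replicates they affected 7.67%, and between R3 P17 and R3 P19 8.56%, whereas between R3 P2 replicate 1 and R3 P19 they affected 0.294%. R3 P19 thus stood apart from its stage. The R3 P2 replicates disagreed, and these values do not settle which is the odd one, since replicate 2 differed from R3 P5 at only 1.46%. Setting aside replicate 2 and keeping replicate 1 is therefore a choice. The late minus early differences in R3 are given with and without R3 P19 and the second R3 P2 replicate. The labels were used as they stand. Without these 2 arrays, the early stage of R3 is a single array, which is then assumed to vary like the other groups.

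The members differed widely in how far they moved along the passages. Over the 18 arrays, the ratio of the highest to the lowest intensity was 1.32 for mys, 1.43 for rhea, 1.60 for Vinc and 1.64 for Ilk. It was 2.65 for inflated, 3.43 for mew and 3.90 for scb, and it reached 15.7 for ItgaPS4 and at least 9.10 for Itgbn, which fell to the floor of 32 set below. Of the tested probe sets, 13.6% had a smaller range than mys, 49.7% a smaller one than Ilk, 83.0% a smaller one than inflated and 98.1% a smaller one than ItgaPS4. The intensities, which are the authors' values on a linear scale, can be compared between arrays for 1 gene but not between genes.

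In R7, 5 of 9 genes passed the test between late and early passages (limma, Benjamini-Hochberg adjusted p under 0.05), 1 higher and 4 lower, against 19.9% of all tested probe sets. ItgaPS5 was called lower as well, which makes 6 of 10, but it passed the filter on low values (above 32 on at least 2 arrays) only through the 2 R7 P2 arrays where it is high, so it had to differ and its call is not counted as support. Of all tested probe sets, 8.75% were called higher and 11.2% lower. Late arrays all above the early ones were found for 17.6% of all tested probe sets, and late arrays all below them for 19.6%. Shares for late arrays beyond all other arrays of the line were not counted. The median difference was -0.08 (log2) over the 9 genes, -0.39 with ItgaPS5 and -0.03 over all tested probe sets. Higher calls made up 43.9% of all calls as deposited, 64% with quantile normalization and 71.6% when array medians were set equal, which moved the median of all genes from -0.03 to 0.16. Groups are given below as mean intensity ± SD and differences as log2 ± SE. Values under 32 were set to 32 before log2. Folds come from the differences of mean log2 values, so they are ratios of geometric means and can differ from the ratio of the means printed beside them.

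The gene inflated was the member that rose. Its R7 intensities were 793 and 693 at P2, 548 at P3, 603 at P4, 645 at P7 and 779.7 at P8, then 1353 at P16, 1305 at P17 and 1453 at P19. The 3 late arrays lay above every other R7 array. The mean was 678 ± 123 (SD, n = 3) early and 1369.96 ± 75.5 (n = 3) late, a 2.04-fold rise (log2 1.03 ± 0.20 SE, limma adjusted p = 0.00453). Over the 32 alternative settings its difference ran from 0.88 to 1.27 and its adjusted p from 0.00181 to 0.0230. It has a single probe set, so the setting with the second probe set repeats the main fit. In R3, inflated was at 1015 and 734 at P2, 753, 774, 910.4 and 1146 at P5 to P8, and 1321, 845 and 931 at P16, P17 and P19. The early and late arrays of R3 overlapped, and the difference of 0.23 ± 0.23 was not called (adjusted p = 0.944). It was 0.06 (adjusted p = 1) without R3 P2 replicate 2 and R3 P19.

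The other well known α subunit gene, mew, moved the opposite way in R7. Its R7 intensities were 600.04 and 567 at P2, 361 at P3, 328 at P4, 450.2 at P7, 394 at P8 and 272, 241 and 255 at P16, P17 and P19. Every late array lay below every earlier one. The mean fell 1.94-fold, from 509.55 ± 129 to 256 ± 15.9 (log2 -0.96 ± 0.23, adjusted p = 0.0135). The second probe set of mew, which is dimmer, gave a difference of -1.42. The call of mew did not hold without R7 P2 replicate 1 (adjusted p = 0.0580) or without R7 P2 replicate 2 (adjusted p = 0.0591). In R3, mew was at 826.5 and 501 at P2, 636, 485, 371 and 552 at P5 to P8, and 594, 750.3 and 747 late, with a late minus early difference of 0.11 ± 0.26 that was not called (adjusted p = 1). Without the 2 R3 arrays its sign changed (-0.31, adjusted p = 0.650).

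**Figure D1:**
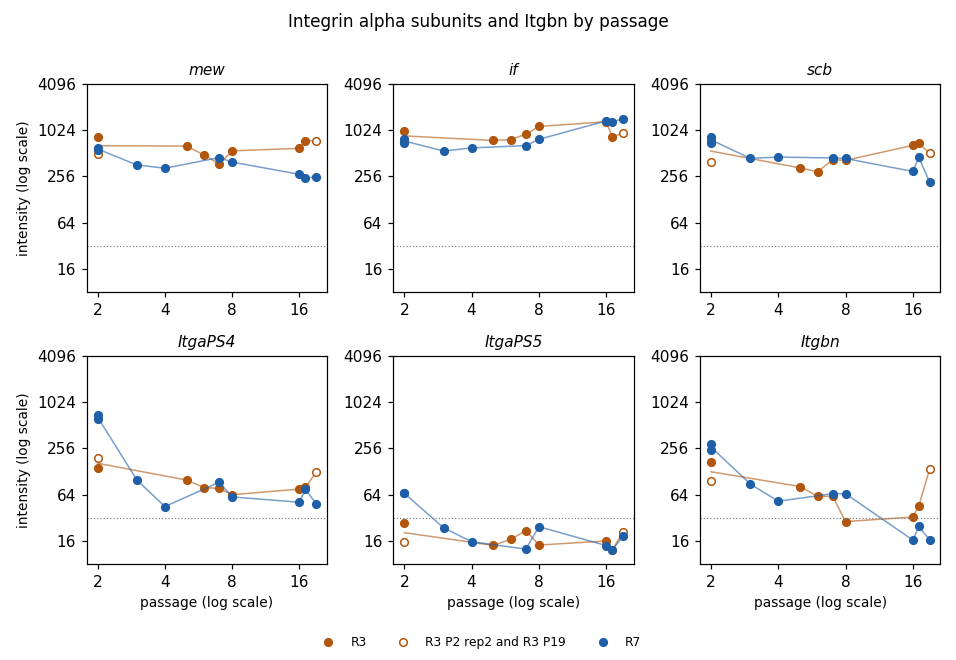
Intensity (log axis) of inflated, mew, scb, ItgaPS4, ItgaPS5 and Itgbn against passage for R3 and R7. Points are arrays, lines join the geometric mean at each passage, open circles are R3 P2 replicate 2 and R3 P19, and the dotted line is the floor of 32. Inflated reaches 1305 to 1453 on the 3 late R7 arrays while mew lies between 241 and 272 there, and ItgaPS4 lies at 704 and 609 at R7 P2 and at no more than 99.04 from P3 on.

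The ratio of inflated to mew on an array does not depend on any single scaling factor of that array, although quantile normalization can alter it. The log2 ratio of inflated to mew intensity was 2.31 at R7 P16, 2.44 at R7 P17 and 2.51 at R7 P19. On the other 15 arrays it lay between 0.17 (R3 P17) and 1.30 (R3 P7). The pair was chosen after seeing that these genes moved in opposite directions in R7, so the ratio restates both changes and has no test. It compares arrays and says nothing of which α chain was the more abundant.

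The gene scb, whose αPS3 chain serves cell migration and the uptake of apoptotic cells, was also lower late in R7. Its R7 intensities were 848 and 692 at P2, 440.4 at P3, 457 at P4, 446 at P7, 438 at P8, and 298, 453 and 217 at P16, P17 and P19. The late array at P17 lay above the early array at P3, so the groups overlapped. The mean fell 2.07-fold, from 660.05 ± 205 to 323 ± 120 (log2 -1.05 ± 0.31, adjusted p = 0.0312). This call did not hold under 7 alternatives: equal array medians (adjusted p = 0.0718), no filter (0.0832), the compared arrays fitted alone (0.125), and the fits that left out 1 R7 array, P16 (0.0788), P19 (0.132), the first P2 replicate (0.120) or the second (0.101). In R3, scb was at 762 and 394 at P2, 331, 295, 422 and 415 at P5 to P8, and 649.9, 693 and 511 late. The R3 arrays at P5 and P6 lay lowest, those at P7 and P8 lay between the P2 replicates, and the late ones overlapped with P2 (0.16 ± 0.34, adjusted p = 1). Without the 2 R3 arrays its sign changed (-0.18, adjusted p = 0.886).

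ItgaPS4, an α subunit gene that neighbours scb with no gene between them in the RefSeq annotation of Release 6, was high at the start of R7. It was at 704 and 609 at R7 P2, 99.04 at P3, 44.8 at P4, 92.7 at P7, 59.8 at P8, and 50.9, 75.4 and 48.7 at P16, P17 and P19. The 2 P2 arrays stood apart from the other 7 arrays of R7. The mean was 471 ± 325 early and 58.3 ± 14.8 late, and the difference of mean log2 values was -2.61 ± 0.56 (adjusted p = 0.00706), which is 6.10-fold between geometric means. Without R7 P3 the fall was 11.5-fold (log2 -3.52, adjusted p = 2.8e-06). The early group was then the 2 P2 replicates alone, so this p-value leaves out the spread between P2 and P3. The call did not hold with P4 counted as early (log2 -1.87, adjusted p = 0.0951) or with the compared arrays fitted alone (adjusted p = 0.0987). In R3, ItgaPS4 was at 142 and 189.6 at P2, 99.1, 79.04, 77.04 and 63.9 at P5 to P8, and 75.6, 79.9 and 125 late. Both R3 P2 arrays lay above all later R3 arrays. Counting only the early and late arrays of R3, 8.68% of all tested probe sets had late arrays all below the early ones. The late minus early difference of -0.85 ± 0.62 was not called (adjusted p = 0.904), nor was that of -0.87 without the 2 R3 arrays (adjusted p = 0.630).

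ItgaPS5 lay near the floor in these cells. It lay above the floor only at R7 P2, at 66.5 in both replicates. R7 P3 read 23.7, and the 15 other arrays lay between 12.1 and 27.3, where values have no order. The R7 late minus early difference of -0.70 ± 0.20 (adjusted p = 0.0278) corresponds to at least 1.63-fold. It was not called with a floor of 64 (adjusted p = 0.617), no filter (0.0736), P4 as early (0.116), the compared arrays alone (0.197), or without R7 P16 (0.0685), R7 P17 (0.0638) or R7 P19 (0.0786). With a floor of 16 the difference was -1.49 (adjusted p = 0.0134).

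Of the β subunit genes, Itgbn fell in R7. Its R7 intensities were 291 and 244 at P2, 87.9 at P3, 52.5 at P4, 66.0 at P7 and 65.7 at P8, and the late arrays read 16.4, 24.6 and 16.6, below the floor. The early mean was 208 ± 107 (SD, n = 3). Late against the early arrays, Itgbn was at least 5.76-fold lower (log2 -2.53 ± 0.53, adjusted p = 0.00638). With a floor of 16, the bound was 9.78-fold. The call held in all 32 alternative settings, with an adjusted p between 0.000691 and 0.0316. Itgbn has a single probe set, so the setting with the second probe set repeats the main fit. In R3, Itgbn was at 169 and 95.6 at P2, 81.6, 61.02, 60.8 and 28.6 at P5 to P8, then 32.7 at P16, 45.5 at P17 and 137 at P19. The R3 arrays at P8 and P16 lay lowest, and P19 lay between the P2 replicates. The late minus early difference was -1.11 ± 0.59 (adjusted p = 0.843), and -2.13 ± 0.62 without R3 P2 replicate 2 and R3 P19 (adjusted p = 0.0539).

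By contrast, mys was nearly level. Its R7 intensities were 2655 and 2405 at P2, 2090.05 at P3, 2310.3 at P4, 2118 at P7, 2115 at P8 and 2158, 2323 and 2234 late. The early mean was 2383.5 ± 283 and the late mean 2239 ± 82.3, a difference of -0.08 ± 0.10 (adjusted p = 0.615) that became 0.16 with equal array medians. In R3, mys was at 2589 and 2686 at P2, 2292, 2437, 2352 and 2511 at P5 to P8, and 2761, 2759 and 2140.2 late, with a difference of -0.06 ± 0.11 (adjusted p = 1), which was 0.09 (adjusted p = 0.730) without the 2 R3 arrays. Its second probe set gave -0.19 in R7 and -0.03 in R3.

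The 3 linker genes were not called in R7 either. The gene rhea, which encodes talin, was at 2698 and 2564 at P2, 2019 at P3, 1978 at P4, 2051 at P7, 2245 at P8 and 2835, 2675 and 2681 late (late minus early 0.18 ± 0.12, adjusted p = 0.314). Talin RNA was lowest from P3 to P8, and its late and P2 arrays overlapped. Ilk, whose product is a scaffold and not an active kinase in the fly, was at 945 and 854 at P2, 716 at P3, 648 at P4, 709 at P7, 762 at P8 and 995, 924 and 984 late (0.22 ± 0.12, adjusted p = 0.218). Vinc was at 856 and 853 at P2, 686 at P3, 709 at P4, 652 at P7, 785 at P8 and 762, 813 and 755 late (-0.03 ± 0.16, adjusted p = 0.935), and its sign changed with equal array medians (0.21). In R7 each linker was below its P2 values at P3, P4, P7 and P8. This depended on scaling: intermediate minus early, rhea, Ilk and Vinc differed by -0.17, -0.18 and -0.15 as deposited. With equal array medians the values were 0.02, 0.01 and 0.04.

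In R3, the ratio of the highest to the lowest intensity was 1.25 for rhea and 1.37 for Ilk, and it was wider, at 1.57, for Vinc. The R3 intensity of rhea lay between 2121 (P6) and 2656 (P8), and that of Ilk between 775 (P7) and 1065 (P16). Late minus early, rhea differed by 0.05 ± 0.13 (adjusted p = 1) and Ilk by -0.10 ± 0.13 (adjusted p = 0.975). Without the 2 R3 arrays these were 0.14 (adjusted p = 0.696) and -0.02 (adjusted p = 1). Vinc was at 718 and 831 at P2, 735, 755, 742 and 873 at P5 to P8, and 1042, 1027 and 665 late. The 2 arrays at P16 and P17 lay above all other R3 arrays, and P19 lay below all of them. The late minus early difference of Vinc was 0.21 ± 0.18 (adjusted p = 0.920) with all arrays and 0.53 ± 0.16 (adjusted p = 0.0561) without R3 P2 replicate 2 and R3 P19.

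**Figure D2:**
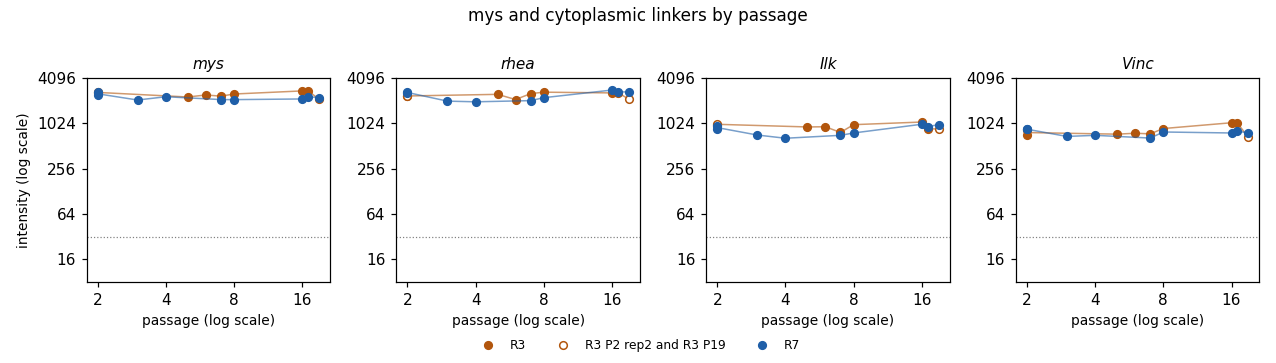
Intensity of mys, rhea, Ilk and Vinc against passage for R3 and R7, drawn like the plot of the α subunit genes. The highest array of each gene is no more than 1.64 times its lowest, and each linker lies below its R7 P2 values at R7 P3, P4, P7 and P8.

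Single steps between passages rest on 1 or 2 arrays at each end and have no test. From the mean of the R7 P2 arrays to P3, the log2 difference was -2.72 for ItgaPS4 and -1.60 for Itgbn. Both were at least 2-fold lower, where 4.45% of all tested probe sets were. ItgaPS5 (-1.06) was above the floor only at R7 P2, so it had to be lower and is not counted. The remaining members were also lower at P3, from mys (-0.27) to scb (-0.80). The share of all tested probe sets lower by any amount was not counted, and the steps were not repeated under other scalings. Scaling moved small R7 differences: intermediate minus early, mys was at -0.16 as deposited and at 0.02 with equal array medians. From P8 to P16, Itgbn reached the floor with a difference of -1.04, where 3.25% of all tested probe sets were at least 2-fold lower. At this step mew was at -0.53 and scb at -0.56, while inflated was at 0.79, Ilk at 0.38 and rhea at 0.34. Itgbn, mew and scb were thus lower after each of these 2 steps, as were ItgaPS4 (-0.23 at the second) and Vinc (-0.04). Inflated was lower after the first and higher after the second, as were rhea, Ilk and, slightly, mys (0.03 at the second). Between these steps ItgaPS4 was lower at P4 than at P3 (-1.15, with 1.91% of all tested probe sets at least 2-fold lower) and higher again at P7 (1.05, with 1.17% at least 2-fold higher). From P17 to P19 the difference of scb was -1.06 (1.95% at least 2-fold lower). Between the R7 P2 replicates, the largest difference of any member was -0.29, for scb.

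In R3, the difference from P2 replicate 1 to P5 was -1.20 for scb and -1.05 for Itgbn, where 4.77% of all tested probe sets were at least 2-fold lower. Most of it already lay between the P2 replicates, with -0.95 for scb, -0.82 for Itgbn and -0.72 for mew in replicate 2 against replicate 1. From P17 to P19 the difference was 1.59 for Itgbn, 0.64 for ItgaPS4 and -0.63 for Vinc (4.75% of all tested probe sets at least 2-fold higher). From P7 to P8 that of Itgbn was -0.93, with P8 at the floor. Between P2 replicate 1 and P19 no member differed by 2-fold.

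**Figure D3:**
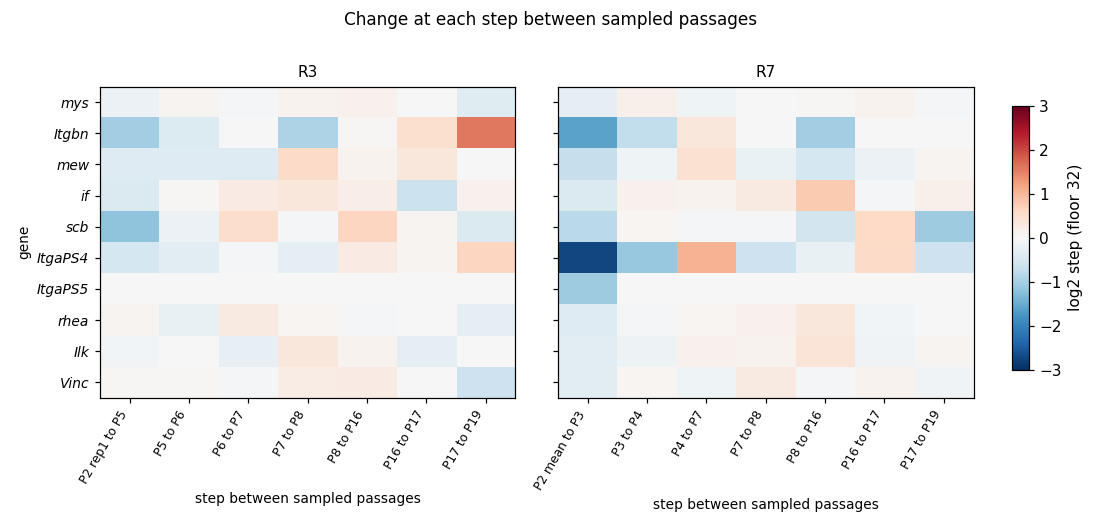
Difference in log2 intensity of each of the 10 genes at each step between successive passages, for R7 and R3, with values under 32 set to 32. As deposited, the step from R7 P2 to P3 is downward for all 10 genes, of which ItgaPS5 had to fall, being above the floor only at R7 P2. The share of all tested probe sets with any downward step was not counted. At the step from P8 to P16 inflated stands at 0.79 and Itgbn at -1.04.

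Across stages in R3, no member was called. For late against early, 0 of 10 genes were called by limma, 0 had an unadjusted p under 0.05, and 0% of all tested probe sets were called. Without R3 P2 replicate 2 and R3 P19, 10.1% of the tested probe sets were called and again 0 of the 10 genes, of which 2 had an unadjusted p under 0.05 (Itgbn and Vinc). Leaving out R3 P8 as well gave 2 calls, Itgbn (-2.13, adjusted p = 0.0350) and Vinc (0.53, adjusted p = 0.0459), with 10.6% of the tested probe sets called. For intermediate against early, 0 of 10 genes were called in R3, 0 had an unadjusted p under 0.05 and 0% of all tested probe sets were called. Without the 2 arrays, 0 of 10 were called and 3 had an unadjusted p under 0.05, where 9.54% of the tested probe sets were called. These were Itgbn (-1.60, adjusted p = 0.111), scb (-1.08, adjusted p = 0.107) and mew (-0.72, adjusted p = 0.165).

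In R7, intermediate against early passages gave 0 of 10 calls, with 3 genes at an unadjusted p under 0.05 and 2.48% of all tested probe sets called. The 3 were ItgaPS4 (-2.23 ± 0.62, adjusted p = 0.0844), Itgbn (-1.48 ± 0.59, adjusted p = 0.185) and ItgaPS5 (-0.70, adjusted p = 0.115). ItgaPS5 was above the floor only at R7 P2, so it had to be lower and is not counted as support. Without R7 P3, ItgaPS4 (-3.14, adjusted p = 2.1e-05) and Itgbn (-2.02, adjusted p = 0.0460) were called. Early R7 was then the P2 replicates alone, without the spread between P2 and P3. The fit also called ItgaPS5, but without P3 every array of it other than R7 P2 stands at the floor, with no spread, so this call is not read here or in the comparisons between the lines. With P4 counted as intermediate, ItgaPS4 was called (-2.47, adjusted p = 0.0263). Of all calls, 49.4% were higher as deposited, 66.7% with quantile normalization and 65.5% when array medians were set equal.

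**Figure D4:**
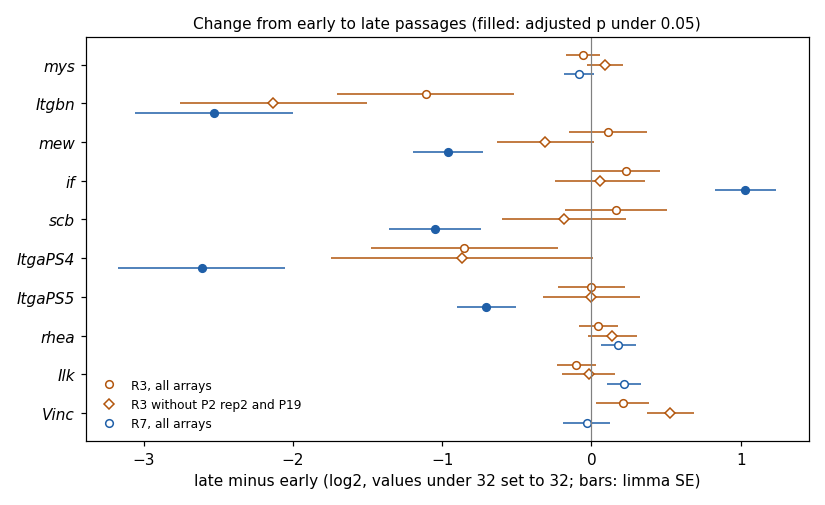
Late minus early difference in log2 intensity (points) with its standard error (bars) for the 10 genes, in R7, in R3, and in R3 without P2 replicate 2 and P19. In R7, inflated stands at 1.03 and Itgbn and ItgaPS4 lie at -2.53 and -2.61, while mys, rhea, Ilk and Vinc lie between -0.08 and 0.22.

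Between the lines, mew was the member that differed late. Its late mean was 256 ± 15.9 in R7 and 697 ± 89.4 in R3, 2.71-fold lower in R7 (-1.44 ± 0.23, adjusted p = 0.00241). This was 1 call among the 10 genes, against 7.63% of all tested probe sets, and it held in all 32 alternative settings (adjusted p between 0.00131 and 0.0252). Of all calls between the lines late, 69.2% were higher in R7 as deposited and 79.9% with equal array medians. The late arrays of R7 lay below those of R3 for mew, scb, Itgbn and ItgaPS4 and above them for rhea, as they lay below for 9.32% and above for 12.6% of all tested probe sets. For ItgaPS4 the gap was narrow (75.36 against 75.58), and for Itgbn the R7 arrays were at the floor. For scb (323 ± 120 in R7 and 618 ± 94.8 in R3) the difference of -0.99 ± 0.31 was not called (adjusted p = 0.0700). It was called without R3 P2 replicate 1 (adjusted p = 0.0460), R3 P2 replicate 2 (0.0461) or R7 P17 (0.0310). Without R3 P2 replicate 2 and R3 P19 together, 3 genes were lower in R7, mew (-1.38, adjusted p = 0.00480), scb (-1.12, adjusted p = 0.0397) and Vinc (-0.41, adjusted p = 0.0440), where 11.2% of the tested probe sets were called. The late difference of inflated, 0.43, was not called (adjusted p = 0.249).

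Early, 0 of 10 genes differed between the lines, 1 had an unadjusted p under 0.05, and 1.07% of all tested probe sets were called. The 10 include ItgaPS5, which was above the floor only at R7 P2 and so had to differ here. Without R7 P3, which leaves the P2 replicates as the only early R7 arrays, ItgaPS4 was higher in R7 (2.00, adjusted p = 0.00142). At the intermediate stage, 0 of 10 were called, 1 had an unadjusted p under 0.05, and 1.88% of all tested probe sets were called.

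The difference between the lines in their late minus early change was itself tested, with 0 of 10 genes called, 4 at an unadjusted p under 0.05 and 2.91% of all tested probe sets called. The 10 again include ItgaPS5, which had to differ here too. The difference between the lines was -1.07 ± 0.35 for mew (adjusted p = 0.134), -1.21 ± 0.46 for scb (adjusted p = 0.204) and 0.80 ± 0.31 for inflated (adjusted p = 0.205). For ItgaPS4 it was -1.76 (adjusted p = 0.304) and for Itgbn -1.41 (adjusted p = 0.390). The changes in R7 were therefore not shown to differ from those in R3. Without R3 P2 replicate 1, mew was called (-1.43, adjusted p = 0.0412). With the P2 replicates as the only early R7 arrays (without R7 P3), mew (-1.30, adjusted p = 0.0313) and ItgaPS4 (-2.67, adjusted p = 0.00116) were called. Without R3 P2 replicate 2 and R3 P19, 0 of 10 were called, 2 had an unadjusted p under 0.05, and 4.08% of the tested probe sets were called. Of all calls of this difference, 56.6% were higher as deposited, 69.0% with quantile normalization and 82.6% when array medians were set equal.

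Among 20 further genes of the intracellular adhesion machinery, 16 had a probe set, and 7 of these were called between late and early R7 passages, 1 higher and 6 lower, where 8.75% of all tested probe sets were called higher and 11.2% lower. Their median difference was -0.18, against -0.03 over all tested probe sets. The gene that rose was by (blistery), which encodes tensin, a linker of integrin tails to actin. It was 2.76-fold higher late, from 203 ± 3.7 to 566.5 ± 89.9 (1.47 ± 0.30, adjusted p = 0.00513). Zasp52, a PDZ and LIM domain protein of adhesion sites and Z-discs, fell 1.81-fold, from 879 ± 94.7 to 488 ± 87.1 (-0.86, adjusted p = 0.00449). Pax, which encodes the adaptor paxillin, fell 1.48-fold, from 403 ± 32.03 to 272 ± 17.3 (-0.57, adjusted p = 0.00423). Actn, which encodes the actin crosslinker α-actinin, fell 1.47-fold, from 914 ± 48.1 to 625 ± 65.6 (-0.55, adjusted p = 0.0172). With equal array medians 3 of the 16 were called and Pax (adjusted p = 0.0629) and Actn (0.0582) were not. Without R7 P2 replicate 1 or without R7 P16 the count was also 3, and Actn was not called (adjusted p = 0.0501 and 0.0690).

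In R3, 0 of the 16 were called between late and early, and 1 without R3 P2 replicate 2 and R3 P19, where 10.1% of the tested probe sets were called. It was Actn (-0.54, adjusted p = 0.0406), named after its value was seen. Late, 2 of the 16 were lower in R7 than in R3, where 7.63% of all tested probe sets were called in either direction. They were Zasp52 (-0.78, adjusted p = 0.0135) and Pax (-0.49, adjusted p = 0.0164). Neither was called without R3 P17 (adjusted p = 0.0514 for Zasp52 and 0.0633 for Pax), without R7 P19 (0.0747 and 0.0511), with equal array medians (0.0740 and 0.0685) or with the compared arrays alone (0.172 and 0.106). Pax was also not called without R7 P16 (adjusted p = 0.0649).

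Of 12 matrix genes, which encode integrin ligands and their partners in the basement membrane, 3 fell and 0 rose between early and late R7 passages, a share near the 19.9% of all tested probe sets that were called. Tsp, which encodes thrombospondin, a ligand of integrins with the αPS2 chain, fell 4.58-fold, from 236 ± 45.5 to 52.2 ± 14.0 (-2.20 ± 0.47, adjusted p = 0.00725). The gene wb, which encodes a laminin α chain, fell 2.18-fold, from 266 ± 29.3 to 122 ± 16.3 (-1.12, adjusted p = 0.00966). The secreted matrix protein gene mspo fell at least 3.79-fold (-1.92, adjusted p = 0.00749), a lower bound because 2 of its 3 late arrays were set to the floor. Its mean was 123 ± 11.4 early and 27.2 ± 7.5 late. The median of the 12 was 0.16, above 0 although the calls were all lower. Without R3 P19, alone or together with R3 P2 replicate 2, the count was 5, with trol and SPARC higher, named after their values were seen. Late, wb was 3.83-fold lower in R7 than in R3 (-1.94, adjusted p = 0.000596), a call not held with the compared arrays alone (adjusted p = 0.0520). Tsp was 3.26-fold lower late (-1.71, adjusted p = 0.0446) and was not called in 21 alternatives, among them the fit without R3 P2 replicate 2 and R3 P19 (adjusted p = 0.125), with adjusted p up to 0.144.

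In R3, 0 of the 12 matrix genes were called between late and early with all arrays. Without R3 P2 replicate 2 and R3 P19, 5 rose, where 3.86% of the tested probe sets were called higher. They are named after their values were seen. They were LanB1 (1.08, adjusted p = 0.0182) and trol (1.08, adjusted p = 0.0381), which encode a laminin β chain and perlecan, vkg (0.70, adjusted p = 0.0197) and Col4a1 (0.48, adjusted p = 0.0222), which encode the type IV collagens, and SPARC (0.53, adjusted p = 0.0177), a collagen-binding protein. Without R3 P19 alone the count was 2.

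Markers of other cell types were read on the same arrays. Late against early in R7, 5 of 9 tested haemocyte markers, 2 of 7 tested somatic muscle markers and 1 of 6 epithelial markers were called lower and 0 higher, where 19.9% of all tested probe sets were called in either direction. The summed intensity of the 10 listed haemocyte markers was 12720 and 11560 at R7 P2, 4789 at P3, 2794 at P4, 4585 to 6034 at the intermediate stage and 2314 to 4121 late. Within R7, ItgaPS4 and Itgbn were also highest at P2, as were mew, scb, ItgaPS5, mys and Vinc. In R3 the sum was highest at P5 (9139), whereas ItgaPS4 was highest on the P2 arrays and Itgbn at P2 replicate 1. Bright probe sets weigh most in such a sum, here Ppn (5658 and 5128 at P2) and He (2547 and 2436). Not every marker followed the sum: crq had a mean of 800.2 early and 1001 late in R7, and srp was at 107 at P4 and had a late mean of 575. In R3 the sum lay between 5319 and 9139, and the marker gcm was at the floor on every array. Of 11 somatic muscle markers, 8 had a probe set, and their sum was 1855 to 3867 early, 5404 at P4, 3537 to 5099 at the intermediate stage and 652.6 to 759 late in R7, and 820 to 1209 in R3. The actin gene Act79B made up 4611 of the 5404 at P4, and Tm2 was at the floor on every array. The epithelial sum was 3797 to 4313 early and 3385 to 3831 late in R7, and 2867 to 5847 in R3. In R7 its brightest genes, cora and Nrg, overlapped between early and late arrays, as did baz. The dimmer crb read 497 to 531 early and 23.5 to 50.6 late, and shg and sdt were also lower on every late array. The part of these cell types in the changes of the integrin genes was not tested.

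The genes whose profiles were most like those of the members were found among 7917 genes by Pearson's r over the 18 arrays, with the mean of each line taken out first. The arrays share line, passage and hybridisation, so these values are a description. For inflated, the closest was by, the tensin gene that also rose in R7 (r = 0.933 over all arrays, 0.86 within R3 and 0.96 within R7), followed by CG10053 (0.927) and eIF5B (0.926). For mew they were Spn27A (0.892), a serpin gene, rau (0.877) and peo (0.873). For scb they were the tubulin gene betaTub60D (0.892), CG31705 (0.882) and nrv1 (0.881), and for ItgaPS4 they were hebe (0.972), the myosin-like gene Mhcl (0.968) and the aquaporin gene Drip (0.964). For Itgbn they were CG7497 (0.982), CG1607 (0.966) and CG1208 (0.965). The profile of each was compared only where the member was above the floor on at least 9 arrays and ranged over at least 1 log2 unit.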

How the data were processed

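The deposited table holds 1 intensity per probe set and array, on a linear scale. The authors labelled the RNA with an Affymetrix 3' kit, per the labels' protocols, and how probe sets were summarised and scaled is not given in the sources used here. Of 18769 non-control probe sets, 13647 had 1 symbol, 402 several and 4720 none, from the platform annotation updated through Entrez numbers. The members mys and mew have 2 probe sets. Of the named matrix genes, wb has 3, Tsp 2 and trol 8, and only the brightest of each was read. Values under 32 were set to 32 and taken to log2, and the 10200 probe sets above 32 on at least 2 arrays were tested with limma 3.58.1 in R 4.3.3, in 1 fit of all 18 arrays (7 groups, 11 degrees of freedom left). The p-values were adjusted over all of them for each of 8 comparisons. A fold against a group at the floor is a lower bound. The number of arrays limits the precision.

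All members are named. From each other list, up to 4 called genes with the smallest adjusted p per comparison are named, and for each member that varied the 3 genes with the most similar profile. The members, lists, floor and rules were chosen with earlier results of these data known. Alternatives were other floors, normalizations, filters, priors, probe sets, placings of P4 and groupings, a replicate block, and each array left out in turn. Members with a single probe set kept it in the setting with the second probe set. The script was tested on simulated data.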

Additional observations from a re-analysis of the deposited data

Results flagged for a closer look

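Of the 10 members, tested in the 1 group of 4 arrays (R3 intermediate), 1 had an array far from the others. Vinc read 873 (872.88) at R3 P8, against 735 to 755 at R3 P5, P6 and P7. The gap to the nearest array was 0.851 of the group's range, above Dixon's 95% critical value for a group of 4, and chance flags about 1 in 20 groups.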

How the results depend on the processing

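With 3 late arrays and as few as 2 early ones, the number of arrays limits what can be called, and levels under an intensity of 32 have no order. Of the 32 alternatives to each count of members called, those that changed a count by over 1.5 times were these, with ItgaPS5 included in the counts. Late against early in R7 gave 3 calls in place of 6 with the compared arrays alone, and 3 to 6 with 1 array left out. Late against early in R3 gave 2 in place of 0 without R3 P2 replicate 2, P19 and P8. Intermediate against early in R7 gave 1 in place of 0 with P4 as intermediate and 1 without those 3 R3 arrays, and 0 to 3 with 1 array left out. R7 against R3 late gave 3 in place of 1 without R3 P2 replicate 2 and P19, 3 without R3 P8 too, and 1 to 2 with 1 array left out. R7 against R3 early gave 0 to 2, and the difference between the lines in the late minus early change 0 to 3, with 1 array left out. The causes were not tested beyond the arrays left out. No called value reversed. The replicate block changed no count: 6 members were called in R7, 0 in R3 and 1 between the lines late. The P2 replicate differences of R3 and R7 correlated at -0.00866 over the 10200 probe sets. Because the R3 P2 replicates disagreed widely, this value cannot decide whether the replicate numbers pair the lines. The setting with the second probe set was not run for the other adhesion genes and matrix genes. Their counts were run under the other 31 settings, an addition made after seeing the data. Late against early in R7 they gave 3 to 9 of 16 and 3 to 5 of 12, in R3 0 to 1 and 0 to 5, and late between the lines 0 to 3 and 0 to 4.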
